A study of Mus musculus with 12 samples.

Results

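The RNAs described here are 6 noncoding transcripts that host small nucleolar RNAs (snoRNAs): Gas5, Snhg1, Snhg3, Snhg5, Snhg8 and Snhg12. They were taken by gene symbol from the gene rows of 3 tables of group means, and all 6 were found among the 20981 genes listed. The series measured RNA from testes of 3-month-old C57BL/6 mice without Maelstrom (Mael-/-), a factor needed to make piRNAs. Spermatocytes of these mice accumulate the LINE-1 protein ORF1p in cytoplasmic bodies, and the comparison asks which cellular RNAs accompany ORF1p. All 12 libraries carry this genotype, so nothing here compares mutant with normal testes. TOTAL is the clarified whole-testis extract in 10 mM EDTA, which takes ribosomes apart. INPUT is the pool of fractions 5 to 8 of a 10 to 50% sucrose gradient of that extract. IP is what an anti-ORF1p antibody took from INPUT, and BO is what beads without antibody took from it. Each group has 3 libraries, and the labels do not say whether these came from separate animals.

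A snoRNA host gene is transcribed and spliced like a messenger RNA, and the snoRNAs are cut out of its introns. The snoRNAs then guide chemical modification or cleavage of ribosomal RNA in the nucleolus. In the 6 genes here the spliced exons encode no long protein. Such host RNAs usually reach the cytoplasm, are engaged by ribosomes and are short-lived, because nonsense-mediated decay recognises their short reading frames. Most belong to the 5′TOP class, whose RNAs start with a C followed by a run of pyrimidines, as do the messenger RNAs of ribosomal proteins and of translation factors. Gas5 (growth arrest-specific 5) is the best known member and accumulates when translation or growth stops.

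The start regions are shown because the 5′TOP class is defined there. Each line gives 50 bases before and 20 bases from the start annotated by RefSeq (GRCm38.p6, the mm10 assembly), on the sense strand, with the longest unbroken run of C and T within 20 bases of the start in capitals. Gas5 has a pair of annotated starts.
Gas5, first start: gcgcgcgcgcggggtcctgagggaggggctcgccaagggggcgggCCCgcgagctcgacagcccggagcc
Gas5, second start: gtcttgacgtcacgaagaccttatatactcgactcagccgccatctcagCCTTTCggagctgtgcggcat
Snhg1: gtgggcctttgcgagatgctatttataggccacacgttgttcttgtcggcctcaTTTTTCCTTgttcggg
Snhg3: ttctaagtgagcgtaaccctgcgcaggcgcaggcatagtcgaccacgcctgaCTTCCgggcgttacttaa
Snhg5: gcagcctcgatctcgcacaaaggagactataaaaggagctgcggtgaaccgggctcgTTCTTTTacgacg
Snhg8: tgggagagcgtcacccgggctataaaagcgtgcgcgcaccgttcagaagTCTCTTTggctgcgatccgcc
Snhg12: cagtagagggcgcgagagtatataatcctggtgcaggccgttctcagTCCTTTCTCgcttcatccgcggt

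These windows lie at chr1:161034551-161034620 and chr1:161035116-161035185 for Gas5, chr19:8723437-8723506 for Snhg1, chr4:132353667-132353736 for Snhg3, chr9:88522878-88522947 for Snhg5, chr3:123508317-123508386 for Snhg8 and chr4:132308628-132308697 for Snhg12. Gas5, Snhg1 and Snhg12 lie on the plus strand and the others on the minus strand. The run is 9 bases long in Snhg1 and Snhg12, a length reached by 10.7% of 32851 promoter sequences within the same distance of their starts. It is 7 bases in Snhg5 and Snhg8 (24.3% of promoters), 6 at the second start of Gas5 (37.5%) and 5 in Snhg3 (57.5%). At the first start of Gas5 it is 3 bases, which 93.7% of promoters reach. The run crosses the annotated start at the second start of Gas5, in Snhg8 and in Snhg12, and begins inside the annotated transcript in Snhg1, Snhg3 and Snhg5. Its first base is C at both starts of Gas5 and in Snhg3, and T in Snhg1, Snhg5, Snhg8 and Snhg12. No run begins at the annotated first base itself. The motif TATAAA, searched on both strands in the 50 bases before the start after the sequences had been seen, is on the sense strand in Snhg5 and Snhg8, which is 2 of 7 starts against 2.63% of all promoters. On the other strand it is in Snhg1, against 1.10% of all promoters.

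For genes the values used here are 1 mean per group, normalized by DESeq2 separately in each pair of groups. The gene tables give no value per library, and their columns of the authors' own comparisons were not used. No spread between libraries and no test is therefore given for the 6 hosts, and each ratio below describes these libraries. Ratios are log2((IP mean + 1)/(other mean + 1)), and a gene is counted as higher or lower past 2-fold. The lowest means that recur most often in each group were taken as the value of 1 read in 1 library. From these, the read numbers behind each mean can be bounded. Intervals are 95% Clopper-Pearson intervals of the plain ratio of means at the fewest reads possible, and they cover counting error only. All 6 hosts passed the filter of a mean of at least 10 in each comparison. The 3 libraries of a group held between 29291266 and 78365061 gene reads together by the same bounds.

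The tissue label was checked first. All 7 spermatocyte markers had TOTAL means of 143 to 13894, and all 5 spermatid markers were near the bottom, between 11.7 and 39.3. All 5 Sertoli cell markers (150 to 66084), all 6 Leydig cell markers (1744 to 29894) and 4 of 5 macrophage markers (179 to 2934) were listed, so the extract holds several cell types. Summed over each list, IP was 5.42 times TOTAL for spermatocyte markers, but 0.332, 0.182 and 0.240 times TOTAL for Sertoli, Leydig and macrophage markers. Against INPUT the same 4 ratios were 5.36, 0.293, 0.362 and 0.336, and against BO they were 8.71, 0.797, 1.79 and 2.01. Most of the Sertoli sum is Clu (66084 in TOTAL). The median marker against INPUT had log2 -0.75 in the Sertoli list, -1.50 in the Leydig list and -1.40 in the macrophage list. The spermatid list had ratios of 0.0261 to TOTAL, 0.105 to INPUT and 1.63 to BO, on IP means from 0 to 0.859 for each gene. The hosts are made in many cell types, and the part that the cell of origin has in their values was not tested. In such bulk samples fewer cells of a type and less RNA per cell cannot be told apart.

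In the whole extract the hosts had at least 211 (Snhg12) to 2598 (Gas5) reads. Per kilobase of the median annotated transcript, the TOTAL mean was 1347 for Gas5, 661 for Snhg1, 462 for Snhg5, 436 for Snhg8, 260 for Snhg3 and 75.4 for Snhg12. With the longest annotated transcript in its place, Gas5 (331), Snhg5 (315) and Snhg8 (297) lay close together, above Snhg3 (195), Snhg1 (146) and Snhg12 (44.9). Gas5 therefore led and Snhg12 was last on both length scales, while the place of Snhg1 depended on the transcript chosen. GENCODE M21 lists 25 transcripts for Gas5, 18 for Snhg1, 10 for Snhg12, 6 for Snhg5, 5 for Snhg3 and 3 for Snhg8, several of which retain introns. Their median lengths run from 437 nt (Snhg3) to 915.5 nt (Snhg12).

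The hosts behaved in different ways on the path from extract to precipitate. Snhg1, Snhg5 and Snhg12 shared 1 order of levels, TOTAL above IP above INPUT above BO. Gas5 and Snhg8 followed the order TOTAL, INPUT, IP, BO. Snhg3 was the exception, since its BO mean lay above both INPUT and IP. On the scale of the IP and TOTAL table, the IP mean was 87.8% of TOTAL for Snhg12, 86.0% for Snhg1, 66.9% for Snhg5, 29.6% for Gas5, 14.5% for Snhg3 and 12.1% for Snhg8.

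**Figure D1:**
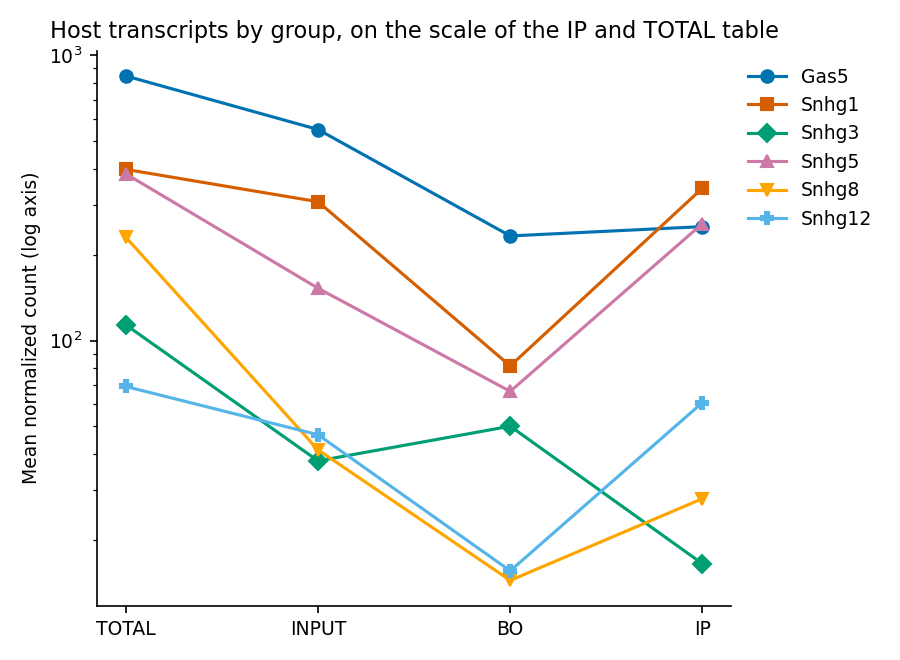
Mean normalized count of each host in TOTAL, INPUT, BO and IP (log axis), with INPUT and BO brought to the scale of the IP and TOTAL table through the shared IP libraries; each point is 1 group mean of 3 libraries. Snhg1, Snhg5 and Snhg12 dip in BO and return in IP, Gas5 stays near its BO level in IP (233 against 251), and Snhg3 has its lowest point in IP.

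Snhg1 (chr19:8723475-8726443, ENSMUSG00000108414) carries a series of box C/D snoRNAs, which guide 2′-O-methylation of RNA. Its mean was 263 in IP and 62.6 in BO, a ratio of 4.20 (interval 3.48 to 5.12) on at least 814 and 124 reads. Against INPUT the means were 345 in IP and 309 in INPUT, log2 0.16. Against TOTAL they were 342 and 398, log2 -0.22. Snhg1 thus lay well above the bead control and near both source samples, and its small difference from INPUT changed sign when groups were scaled to equal sums (-0.37) or to the upper quartile of gene means (-0.25).

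Snhg12 (chr4:132308623-132311024, ENSMUSG00000086290) holds 4 annotated snoRNAs, mostly of the H/ACA kind that guides pseudouridylation. It followed Snhg1 at a lower level, with 46.4 in IP against 11.9 in BO, a ratio of 3.89 (2.50 to 6.34). The mean was 60.8 in IP and 46.9 in INPUT (log2 0.37, which became -0.15 on equal sums and -0.03 on the upper quartile). It was 60.6 in IP and 69.0 in TOTAL (log2 -0.18), and the interval of that ratio, 0.704 to 1.09, includes 1. Over the 3 log2 ratios, Snhg1 and Snhg12 were the closest pair of the 15 pairs of hosts, at a Euclidean distance of 0.28.

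Snhg5 (chr9:88521050-88522929, ENSMUSG00000097195), the host of box C/D snoRNAs of the U50 family, had the highest IP to INPUT ratio of the 6. Its means were 258.6 in IP and 153 in INPUT, log2 0.75, a ratio of 1.69 (1.49 to 1.91). It also stood above the beads, at 197 in IP and 50.9 in BO, log2 1.93. In IP against TOTAL it was 257 and 384, log2 -0.58. Its positive difference from INPUT held on every scaling tried, with values between 0.22 and 0.75.

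Gas5 (chr1:161034422-161038539, ENSMUSG00000053332) was the most abundant host in the extract, and IP did not separate from beads. The mean was 193 in IP and 179 in BO, a ratio of 1.08 with an interval of 0.944 to 1.23, on at least 596 and 355 reads. The log2 ratio of 0.11 turned to -0.70 when centred on the median gene, to -0.18 on equal sums and to -0.56 on the upper quartile. Against its sources Gas5 was lower in IP on every scaling tried. The means were 252 in IP against 553 in INPUT (log2 -1.13) and 251 against 847 in TOTAL (log2 -1.75).

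Snhg8 (chr3:123507552-123508404, ENSMUSG00000104960), host of the H/ACA snoRNA Snora24, had the lowest IP to TOTAL ratio. The means were 27.9 in IP and 230.2 in TOTAL, log2 -3.00 and a ratio of 0.121 (0.0923 to 0.157). Most of that distance was already present in INPUT, which held 18.0% of the TOTAL level. The step from INPUT to IP was 41.5 to 28.0, log2 -0.55, and only 2.93% of genes had a lower IP to TOTAL value. Against beads, 21.4 in IP and 11.0 in BO gave log2 0.89, a ratio of 1.94 (1.17 to 3.33) on as few as 21 BO reads. This is close to the median gene of that comparison.

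Snhg3 (chr4:132348014-132353686, ENSMUSG00000085241) is the host of U17, an H/ACA snoRNA (Snora73 in mouse) needed for cleavage of the ribosomal RNA precursor and not for its modification. It was the 1 host lower in IP than on beads. The mean was 12.6 in IP and 38.2 in BO, a ratio of 0.329 (0.217 to 0.492), and log2 -1.53 lay above only 6.18% of the genes compared. The means were 16.5 in IP and 37.9 in INPUT (log2 -1.15), and 16.5 in IP and 113.5 in TOTAL (log2 -2.71). IP held between 38 and 50 reads of it in all. Of its 986 annotated exonic bases, 13.7% are shared on the same strand with Rcc1, a nuclear exchange factor gene, and 71.5% lie opposite the noncoding gene Gm17300. Rcc1 had log2 ratios of 1.20, -0.09 and -0.10 in IP against BO, INPUT and TOTAL, unlike those of Snhg3. The libraries are stranded, but whether the counting used the strand is not given in the sources used here.

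**Figure D2:**
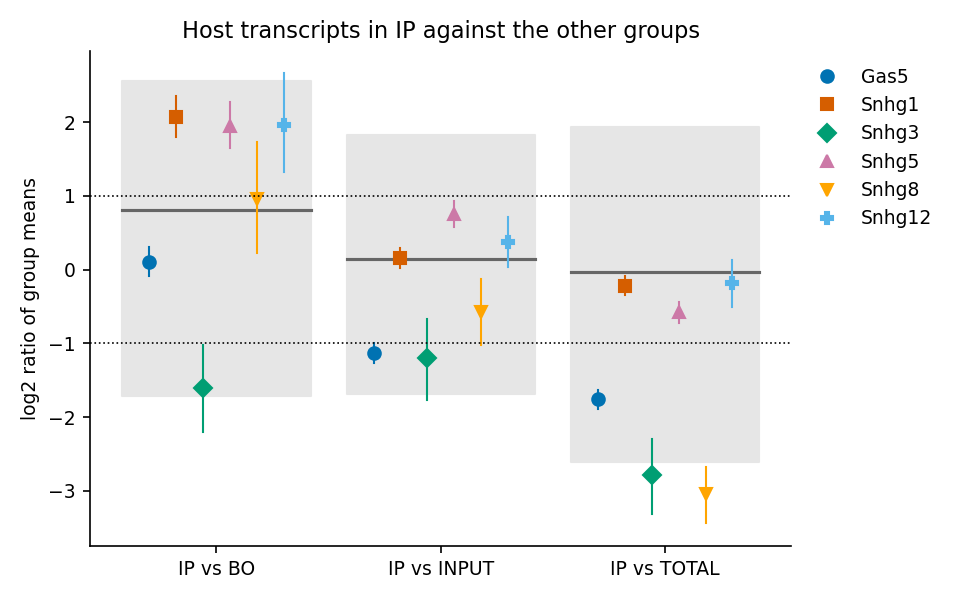
log2 ratio of group means (no pseudocount) of IP against BO, INPUT and TOTAL for each host. Vertical lines are 95% counting intervals, grey bands span the 5th to 95th percentile of all genes with a mean of at least 10, grey lines are their medians and dotted lines mark 2-fold. Snhg1, Snhg5 and Snhg12 sit together above 2-fold against BO, and Gas5, Snhg3 and Snhg8 sit below -1 against TOTAL.

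In IP against BO, the counts of hosts were near those of all genes. Of the 6 hosts, 3 were past 2-fold higher (Snhg1, Snhg5, Snhg12), against 43.9% of 13634 genes, and 1 was lower (Snhg3), against 11.2%. The median gene had log2 0.81 there, so a positive value on this scale is the usual state of a gene, and Gas5 lay above only 30.4% of genes. In IP against INPUT, none was past 2-fold higher, against 20.5% of 14400 genes, and 2 were lower (Gas5 and Snhg3), against 14.6%. In IP against TOTAL, none was past 2-fold higher, against 20.4% of 14666 genes, and 3 were lower (Gas5, Snhg3 and Snhg8), against 26.2%. The hosts' median log2 ratio was 1.38 against BO (all genes 0.81), -0.20 against INPUT (0.15) and -1.16 against TOTAL (-0.03).

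INPUT and TOTAL, and BO and INPUT, were not placed in 1 table by the authors, so these steps were read through the IP libraries the tables share. From TOTAL to INPUT all 6 hosts had negative values, from -0.38 (Snhg1) through -0.55 (Snhg12), -0.62 (Gas5), -1.33 (Snhg5) and -1.56 (Snhg3) to -2.45 (Snhg8). The 3 past 2-fold lower compare with 17% of 14280 genes, and the median gene had -0.14. Only 0.567% of genes had a lower value than Snhg8. From INPUT to BO, Gas5 (-1.24), Snhg1 (-1.90), Snhg5 (-1.18), Snhg8 (-1.45) and Snhg12 (-1.51) were past 2-fold lower on beads, and Snhg3 was higher, at 0.38. Of 13578 genes, 33.3% were past 2-fold lower, and the median gene had -0.55. Of the 5 hosts, 1 (Snhg1) remained past 2-fold lower once the median gene was set to 0.

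Transcript length moved with these steps over all genes, and it was looked at after the data had been seen. Of genes whose median GENCODE transcript is under 1 kb, 28.9% were past 2-fold lower in INPUT than in TOTAL, against 18.4% at 1 to 2 kb and 4.70% at 2 kb and over. The medians of these classes were -0.42, -0.32 and 0.16. All 6 hosts are in the shortest class. In IP against INPUT the class medians were alike, at 0.15, 0.19 and 0.13. In IP against TOTAL they were -0.34, -0.15 and 0.29, and 34%, 29.6% and 16.1% of the genes in these classes were past 2-fold lower. In IP against BO they were 1.20, 0.93 and 0.34, so in that comparison Gas5, Snhg3 and Snhg8 lay below the median of genes of their length. The part of length in the hosts' values was not tested.

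**Figure D3:**
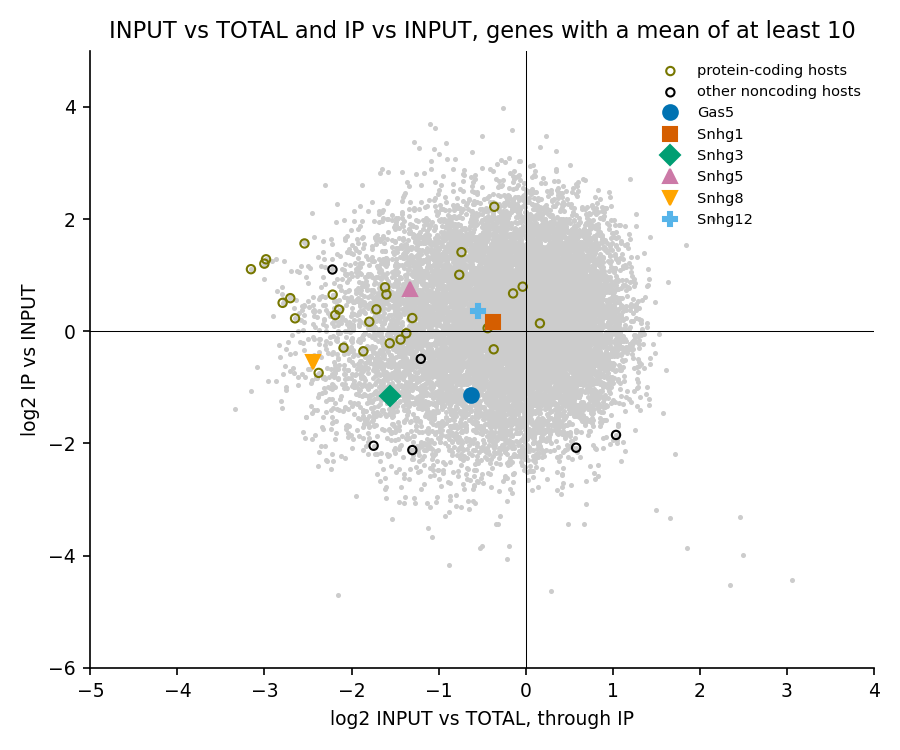
Each grey point is a gene with a mean of at least 10; the x axis is the log2 ratio of INPUT to TOTAL read through IP and the y axis the log2 ratio of IP to INPUT. Snhg8 lies leftmost of the 6 hosts (-2.45), Gas5 and Snhg3 lie lowest of the 6 hosts (-1.13 and -1.15), and most protein-coding hosts (olive circles) lie to the left of 0.

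Other snoRNA hosts were read from lists by the same rule. Of 14 further noncoding hosts, 8 were listed, and all 8 had a mean of at least 10 in IP against TOTAL. Snhg18 (441.5 in TOTAL, 31.1 in IP, log2 -3.79), Snhg9 (-3.47), Snhg10 (-3.42) and Dancr (-3.37) were lowest. The last 3 had IP means of only 2.1 to 3.5 and passed the filter through TOTAL alone, so no count is drawn from this list. Snhg7 (-1.70), Rian (-1.50) and Snhg6 (-1.12) were less far down, and Snhg11 had -0.81. In IP against INPUT, Snhg11 (-1.85), Snhg18 (-2.04) and Rian (-2.08) were lower, Snhg7 was within 2-fold (-0.49), and Snhg6 was higher (259 in IP, 120 in INPUT, log2 1.10). Snhg10 had -2.12 there and passed the filter through INPUT alone. In IP against BO, Snhg6 was higher (log2 1.98), Rian was lower (-2.66), and Snhg11 (-0.68) and Snhg18 (0.47) were within 2-fold. Rian is an imprinted nuclear RNA with a large snoRNA cluster. Snhg6 thus had the order of levels of Snhg1, Snhg5 and Snhg12, below TOTAL and above both INPUT and BO. It was past 2-fold against TOTAL and INPUT, where those hosts were not. Snhg18 lay below Snhg8 against TOTAL (-3.79 and -3.00).

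The protein-coding hosts are mostly 5′TOP genes for ribosomal proteins and translation factors, and 30 of 31 were listed, 29 with a mean of at least 10. Against BO all 29 were past 2-fold higher, beside 43.9% of all genes (median log2 2.40, against 1.38 for the noncoding hosts). Against INPUT 7 were higher (24.1%, near the 20.5% of all genes) and none lower (14.6% of all genes), with a median of 0.39. Against TOTAL 18 were lower (62.1%, beside 26.2% of all genes) and 1 higher (20.4% of all genes), with a median of -1.56. From TOTAL to INPUT 21 were lower (72.4%, beside 17% of all genes), with a median of -1.71. Eif4a2, which encodes a translation initiation helicase, was highest against TOTAL (1.86), and Rplp2, for a protein of the ribosomal stalk, was lowest (-3.12). The values of this list ran from -3.16 to 0.16 into INPUT, and from -0.74 to 2.22 from INPUT into IP. Snhg5 (-1.33 into INPUT, then 0.75 into IP), Snhg1, Snhg8 and Snhg12 had values inside both ranges. No coding host was past 2-fold lower against INPUT, as Gas5 and Snhg3 were, or against BO, as Snhg3 was. Of the ribosomal protein genes with a mean of at least 10, 77 of 78 were past 2-fold higher against BO (43.9% of all genes). Against TOTAL 63 of 79 were lower (26.2% of all genes) and 1 was higher (20.4% of all genes).

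Genes that act on the hosts or their snoRNAs can be read against the shares of all genes past 2-fold higher, which are 43.9% against BO, 20.5% against INPUT and 20.4% against TOTAL. The shares past 2-fold lower are 11.2%, 14.6% and 26.2%. Of 15 genes for snoRNP proteins, 13 were past 2-fold higher against BO and 5 were higher against INPUT. Against TOTAL 1 was higher and 3 were lower (20.0%, near the share of all genes). The extremes against TOTAL were Nop58 (1.03), a core protein of box C/D particles, and Nhp2 (-2.51), one of H/ACA particles. Of 10 nonsense-mediated decay genes, 5 were higher against BO, near the share of all genes, 4 against INPUT and 7 against TOTAL, with none lower. The helicase gene Upf1 was highest against TOTAL (2.29) and Upf3b was lowest (-0.89). Of 6 genes for regulators of 5′TOP RNAs, 2, 1 and 3 were higher against BO, INPUT and TOTAL and none was lower. Mtor, for the growth-control kinase, was highest against TOTAL (2.07) and Cnbp lowest (-0.35).

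Nuclear long noncoding RNAs were compared because part of any host RNA is nuclear. All 8 were listed and 6 had a mean of at least 10. Against BO 1 was higher and 2 were lower, beside 43.9% and 11.2% of all genes. Against both INPUT and TOTAL 4 were lower and 1 was higher. Of all genes, 14.6% were lower and 20.5% higher against INPUT, and 26.2% lower and 20.4% higher against TOTAL. Meg3 was lowest against TOTAL (157.6 in TOTAL, 29.3 in IP, log2 -2.39), and Kcnq1ot1 was highest (1.23). Malat1, retained in nuclear speckles and named after its values were seen, had a TOTAL mean of 45485, so nuclear RNA was present in the clarified extract.

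The genes whose 3 ratios lay closest to the hosts' median profile, among 8004 genes with a mean of at least 100 in every group, were Tspan17, Gcsh, Eri3, Smim7 and Vim, at distances of 0.07 to 0.18. All 5 encode proteins. The hosts themselves were farther apart than that, up to 4.56 between Snhg1 and Snhg3.

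The snoRNAs that the hosts release were seen only in part. GENCODE and RefSeq place 26 snoRNA genes inside the 6 hosts (9 in Gas5, 8 in Snhg1, 4 in Snhg12, 2 each in Snhg3 and Snhg5, 1 in Snhg8), and 6 of these were listed as genes. One of the 9 in Gas5 carries the symbol Mir5117 and is a snoRNA by its GENCODE gene type. Snord22, in Snhg1, is the most abundant of the 6. Its sequence is shown from GENCODE M21, plus strand of chr19:8725866-8725991, with its terminal box D in capitals, because its levels can be set beside those of its host.
Snord22: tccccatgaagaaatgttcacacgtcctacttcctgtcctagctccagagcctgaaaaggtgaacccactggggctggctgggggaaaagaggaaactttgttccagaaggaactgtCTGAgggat

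Snord22 had means of 48.3 in TOTAL, 53.2 in INPUT, 8.37 in BO and between 5.29 and 6.94 in IP in the separate tables. Its log2 ratios in IP were -2.64 against TOTAL, -2.77 against INPUT and -0.57 against BO, while those of Snhg1 were -0.22, 0.16 and 2.05. With IP means under 10, Snord22 passed the filter against TOTAL and INPUT through those groups alone and failed it against BO, so no difference between host and product is drawn. Annotation places Snord22 inside an exon of 3 of 18 Snhg1 transcripts, so some of its reads could be shared. Snord47, in Gas5, and Snora16a, Snora44, Snora61 and Snord99, in Snhg12, had IP means between 0.249 and 1.59 and INPUT means between 6.99 and 13.4, and their log2 ratios in IP against INPUT lay between -2.96 and -1.98. Against TOTAL these ratios lay between -2.47 and -0.55, and against BO they were -2.0 for Snord47, -0.35 for Snord99 and -0.24 for Snora44. Snora16a and Snora61 were listed at 0 in BO and at 0.646 in IP. All 5 had IP means under the 10 used as a filter for the hosts, so these ratios rest on few reads.

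U17, the product of Snhg3, can be tested, because it is also a repeat name and repeat subfamilies have a value in each library. Its pair of copies in the introns of Snhg3 is shown for that reason, from GENCODE M21, minus strand, at chr4:132352775-132352979 and chr4:132352322-132352526, with the terminal ACA box in capitals.
Snora73a: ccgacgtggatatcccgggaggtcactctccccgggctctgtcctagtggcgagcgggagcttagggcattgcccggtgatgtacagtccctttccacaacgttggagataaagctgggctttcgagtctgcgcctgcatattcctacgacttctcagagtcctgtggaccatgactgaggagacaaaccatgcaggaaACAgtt
Snora73b: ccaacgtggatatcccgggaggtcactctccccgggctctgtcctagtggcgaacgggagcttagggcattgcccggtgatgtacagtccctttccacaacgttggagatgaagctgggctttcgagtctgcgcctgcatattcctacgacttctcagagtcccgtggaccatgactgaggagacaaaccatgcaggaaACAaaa

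Both copies are 205 nt long and are identical at 198 positions, 96.6%. Neither lies wholly inside an exon of the 5 annotated Snhg3 transcripts, and partial overlap was not checked. The repeat name U17 also takes in other genomic copies. The gene tables list 10 U17 loci without positions, of which the 3 highest hold 96.1% of the summed TOTAL means, so which of these are the Snhg3 copies is unknown.

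U17 was present in the extract and fractions and was scarce on beads and in IP. Its normalized counts were 128.1, 199 and 163 in the 3 TOTAL libraries, and 151, 163 and 103 in INPUT. In BO they were 27.4, 19.5 and 22.5, and in IP 8.83, 43.5 and 20.5. Every TOTAL and INPUT library lay above every BO and IP library, and the IP libraries spanned all 3 of BO. The means were 163 ± 35.3 in TOTAL, 139 ± 32.0 in INPUT, 23.1 ± 4.0 in BO and 24.3 ± 17.7 in IP (SD, n = 3 libraries each). Between 6 and 34 reads stood behind each IP value and between 136 and 207 behind each TOTAL or INPUT value.

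A limma fit of all 4 groups over 1180 subfamilies, with Benjamini-Hochberg adjustment, tested these differences. U17 fell by 2.70 (log2, SE 0.43) in IP relative to INPUT, with an adjusted p of 0.00073 (-2.08 without replicate 1, still called). It fell by 2.94 relative to TOTAL, with an adjusted p of 0.00056 (-1.43 with libraries scaled to their totals, still called). U17 was lower in 3 of 3 IP libraries than in any library of either group. IP and BO differed by -0.18 (SE 0.43), with an adjusted p of 0.78, and that value ranged from -0.83 to 0.50 with a replicate left out. INPUT and TOTAL differed by -0.23, with an adjusted p of 0.83. With libraries scaled to their totals this was 0.76 (adjusted p 0.084), where the median subfamily was at 1.03. Where Snhg3 exons were at 33.3% of TOTAL in INPUT, the U17 means were 139 in INPUT and 163 in TOTAL in a table of its own. On beads the host was at 1.30 times its INPUT mean, read through IP from as few as 76 BO reads and with no interval. U17 on beads lay far below its own INPUT mean. The difference between host and product was not tested, since the host has no value per library.

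**Figure D4:**
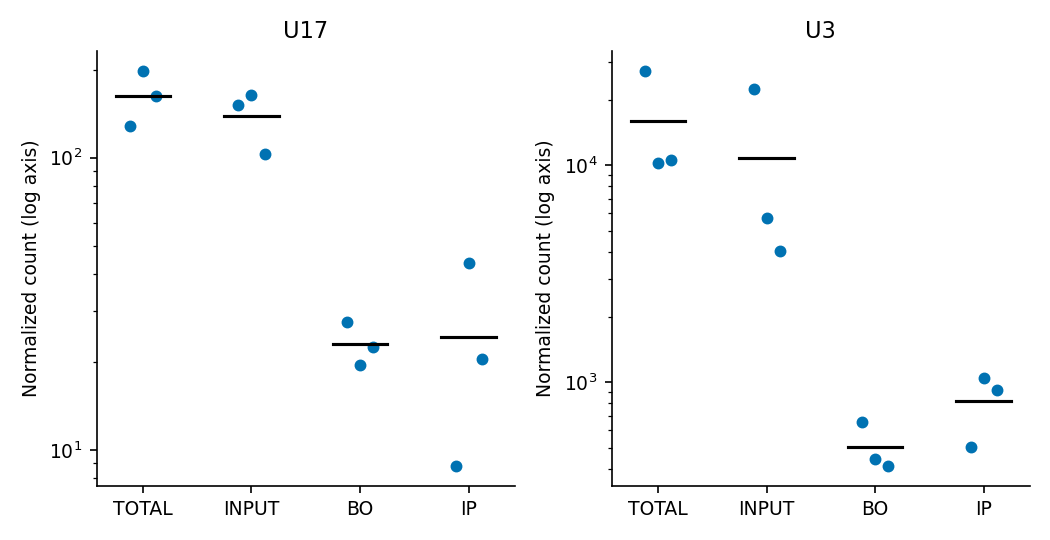
Normalized count (log axis) of the repeat names U17 and U3 in each library, with black lines at the group means. For U17 the TOTAL and INPUT libraries lie between 103 and 199 and the BO and IP libraries between 8.83 and 43.5; for U3 the first TOTAL and INPUT libraries stand above the rest.

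The other snoRNA repeat names come from genes of their own or from other hosts and serve as comparison. U3, a box C/D snoRNA of pre-rRNA cleavage with genes of its own, had counts of 27347, 10276 and 10557 in TOTAL and of 22558, 5721 and 4014 in INPUT. In BO the counts were 653, 444 and 412, and in IP 502, 1047 and 920. It fell by 3.35 in IP relative to INPUT (adjusted p 0.0011, limma) and fell by 4.19 relative to TOTAL (adjusted p 0.00032). Without replicate 1 these differences were -2.29 and -3.41, and with libraries scaled to their totals -2.81 and -2.64, all still called. U8, U13 and U14 passed the filter on the mean through TOTAL and INPUT, so their IP values are given with no test, and no count over the names is drawn. U8 had 0 or 1 read in each IP library, beside 10 to 38 in each INPUT library and 19 to 92 in each TOTAL library. U13 had a mean of 5.97 in IP, 10.9 in INPUT and 22.2 in TOTAL. U14, which comes from introns of protein-coding hosts, had 6.44 in IP, 22.8 in INPUT and 13.9 in TOTAL. Of all subfamilies, 2.88% were called lower in IP than in INPUT and 3.47% than in TOTAL. These are 34 and 41 of 1180, and with libraries scaled to their totals 18 and 17 were called lower. A further name, U13_, was under the filter and was not tested, and its mean was highest in IP (10.3 ± 5.52, against 6.72 ± 6.61 in BO, 7.61 ± 2.11 in INPUT and 4.93 ± 2.84 in TOTAL; SD, n = 3 each).

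Neither U3 nor U17 was called lower relative to BO, as 3.81% of subfamilies were. In the fit of all 4 groups no name was called lower in INPUT relative to TOTAL (0.339% of subfamilies). INPUT is a fraction of the TOTAL extract, and deviations of same-numbered TOTAL and INPUT libraries correlated at 0.629, 0.339 and 0.321. Libraries 2 and 3 correlated about as well crosswise (0.331 and 0.243), so replicate 1 alone stood apart. U3, U8 and U13 were lower in INPUT in 3 of 3 same-numbered pairs, U17 in 2 of 3 and U14 in 0 of 3. With these pairs as a block, in a limma fit of TOTAL and INPUT alone, chosen after seeing the data, U8 was called lower in INPUT (-1.14, adjusted p 0.035). U3 had -0.84 (adjusted p 0.020), short of the 2-fold threshold, and U17 had -0.23 (adjusted p 0.41). That fit called 16 subfamilies lower, against 4 in the fit of all groups. U8 was not called by limma with a replicate block over all 4 groups (adjusted p 0.28). Nor was it called with libraries scaled to their totals (-0.19, adjusted p 0.83), where the median subfamily was at 1.03.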

How the data were processed

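The analysis started from the processed files of 12 RNA-seq libraries, 3 for each of TOTAL, INPUT, BO and IP, grouped by the sample labels. Ribosomal RNA had been depleted and libraries were stranded. Per the labels, alignment was done by the authors with STAR 2.6.0c on mm10. For genes they ran DESeq2 1.24.0 on IP against each other group. The deposited signal there is the group mean of normalized counts, in 802920 rows per table, 20981 of them genes. The same tables hold the authors' log2 fold changes, standard errors, statistics and p-values, which were not used. The gene annotation and counting tool are not given in the sources used here. A set of 4 rows per table names no gene (21.6 to 37.1% of the summed means) and was left out. For repeats, the authors reassigned ambiguous reads with Telescope, summed them per subfamily and applied upper quartile normalization. This deposited signal has 1 value per library. Of these values, 99.9 to 100% are whole multiples of 1 step, within 0.1 read, which gave 1384904 to 7282171 recovered reads per library.

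Members and gene lists were chosen with earlier results of these data known. Gene ratios used a pseudocount of 1, a mean of at least 10 over the compared groups and a 2-fold threshold, in Python 3.11.15 with SciPy 1.17.1. Named genes are the 6 hosts, the other noncoding hosts with a mean of at least 10, the snoRNA names, the 5 nearest genes and the extremes of each list against TOTAL. Malat1, and Rcc1 as a gene that overlaps Snhg3, were added after their values were seen. Subfamilies were fitted with limma 3.58.1 in R 4.3.3 on log2(value + 1), with a call at log2 beyond 1 and an adjusted p under 0.05. The p-values measure the spread between these libraries, which may be technical. On simulated counts for IP against TOTAL, with 200 of 1180 subfamilies changed by a log2 of 2, the fit called 100% of them and 0 others. The simulated counts had the same fixed spread for every subfamily, so this result does not measure the errors of the fit on these libraries. Alternatives were other pseudocounts, filters, scalings and fold thresholds, and for subfamilies also a replicate block, a fit limited to the groups compared, leaving out each replicate, and edgeR 4.0.16 run on recovered reads. Whether same-numbered libraries pair was checked by the correlation of their deviations from group means over subfamilies. It was above 0.1 in all 3 pairs of TOTAL and INPUT (0.32 to 0.63), where INPUT derives from TOTAL, and not in all 3 pairs of any other groups. Libraries 2 and 3 of TOTAL and INPUT correlated about as well crosswise (0.24 and 0.33). Symbols of 19888 genes matched GENCODE M21, and all 6 hosts matched RefSeq promoters. Repeat loci inside the hosts were not analysed here, since loci carry no positions.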

Additional observations from a re-analysis of the deposited data

How the results depend on the processing

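Gene values rest on group means, so no library could be left out for them. With a mean of at least 100, the hosts past 2-fold went from 4 to 2 against BO (lower from 1 to 0) and from 2 to 1 against INPUT (lower also 1), because fewer hosts passed, and from 3 to 2 against TOTAL. Scaling to equal sums raised the hosts past 2-fold lower from 2 to 3 against INPUT (with Snhg8, -1.06) and from 3 to 4 against TOTAL (with Snhg5, -1.09). A pseudocount of 10 also left 1 against INPUT (lower 1), and a 1.5-fold threshold added 1 higher. From INPUT to BO, centring on the median gene left 1 of 5 lower. Among snoRNA names, a mean of at least 100 left 1 to test, U3, which stayed called against INPUT and TOTAL. Scaling to library totals moved the median subfamily in IP against TOTAL from -0.05 to 1.49, and U17 there from -2.94 to -1.43. U17 in IP against BO changed sign on library totals (0.29), where the median subfamily also moved, from -0.12 to 0.36. It was 0.16 with edgeR and ranged from -0.83 to 0.50 with a replicate left out. In INPUT against TOTAL it was 0.76 on totals. Without a replicate, U17 stayed called in IP against INPUT (-3.11 to -2.08) and TOTAL (-3.32 to -2.55), and the names called in INPUT against TOTAL ranged from 0 to 1 (U3, without replicate 1, -1.12). U14 in IP against BO was 0.14 with a pseudocount of 10, 0.17 on totals, 0.034 with median ratio factors, 0.58 with edgeR and from -0.92 to 1.39 with a replicate left out. On totals, INPUT against TOTAL was 0.17 for U3 and 0.065 for U13, and U14 was called higher (1.70). U8, U13 and U14 passed the filter through TOTAL and INPUT, and their calls in IP are not read. U3 was called higher in IP than BO without replicate 1 (1.20), and stayed called lower against INPUT (-3.97 to -2.29). The cause was not tested. With edgeR 38 subfamilies were called lower and 36 higher in IP against TOTAL, beside 41 and 34 with limma. On library totals limma called 17 lower and 1014 higher there. In IP against INPUT the totals gave 18 lower and 126 higher instead of 34 and 38. In IP against BO they gave 17 and 126 instead of 45 and 60. Outside TOTAL and INPUT no 2 groups had all 3 same-numbered pairs above 0.1 (BO and INPUT had 2), so pairing there was not shown. A replicate block over all groups cannot move a difference here, since each group holds each replicate once. With that block in limma, U17 stayed called in IP against INPUT (adjusted p 0.00073) and TOTAL (adjusted p 0.00069). With TOTAL and INPUT alone, the block called 1 snoRNA name (U8) where none had been called, and changed no other call among these names. Over all subfamilies, those called lower went from 4 in the fit of all groups to 16.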
